A study of Mus musculus with 4 samples.

Results

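Collagen chain genes were followed across the cell types of mouse testes at postnatal day 15 (P15), in wild-type and *Meioc*-null pups. A member was any gene whose symbol is "Col", a number, "a" and a number, with at least 20 UMIs (unique molecular identifiers, each standing for 1 captured transcript) over the 4 libraries in barcodes with more than 1000 detected genes and less than 10% mitochondrial UMIs. Of 44 such symbols, 43 were members, out of 21052 genes that reached the same UMI count. *Col10a1*, with 10 UMIs, fell outside, and the members closest to the limit were *Col19a1* with 51 UMIs and *Col9a1* with 70.

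Collagens are trimers of 3 alpha chains, each chain made from its own gene, and they form the fibres and sheets of the extracellular matrix. Fibrillar collagens build the fibres of connective tissue, collagen IV builds the network of basement membranes, collagen VI forms beaded filaments between these layers, and smaller classes decorate fibrils or cross the cell membrane. In the testis the seminiferous tubule is wrapped by a basement membrane and by peritubular myoid cells, the contractile cells of the tubule wall. Sertoli cells, the nurse cells of the germ line, sit on the inner face of that membrane, while fibroblasts and the steroid-making Leydig cells lie in the interstitium outside it.

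The 4 libraries were 10x Genomics Chromium 3′ single-cell libraries, each from 1 testis of 1 pup, with 2 wild-type and 2 *Meioc*-null pups on the C57BL/6N strain. Each batch held 1 littermate pair. According to the study's methods, the null allele was *Meioc* tm1.1Dpc, and all pups were also heterozygous for *Hspa2* tm1Dix and homozygous for a ROSA26 tdTomato reporter, so these alleles are shared by both genotypes. The supernatant of the first collagenase digestion, which holds interstitial cells, was discarded before the tubules were digested, so interstitial cells are those that remained. P-values below rest on 2 pups per genotype.

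The deposited matrices held 11986 to 16486 barcodes and 158291903 to 190455307 UMIs per library. After the 2 limits on barcodes and removal of likely doublets, 5644 to 7505 cells remained per library, and no pair of libraries shared more than 16 barcodes among them. Cell types were rebuilt from marker genes after clustering without collagen genes, and each name stands for cells like that type. There were 2495 myoid cells (557 to 736 per library), 950 fibroblast-like cells (207 to 288), 1304 Sertoli cells (291 to 362), 179 Leydig cells (21 to 72) and 20323 germ cells (4282 to 6048). Among the somatic cells, 7 of 7 myoid, 7 of 8 fibroblast-like, 5 of 6 Leydig and 8 of 8 Sertoli markers were detected in at least 25% of the cells of their type. In fibroblast-like cells 1 of the 6 Leydig markers also reached that share. There the 6 summed to 951 to 1128 counts per 1000000 UMIs, against 4693 to 7020 in Leydig cells. *Dlk1*, of the Leydig list, was among the leading genes of both fibroblast-like clusters. Median depth was 8390 to 11322 UMIs per myoid cell, 8179 to 9782 per fibroblast-like cell, 15318 to 19987.5 per Leydig cell, 12801 to 16315.5 per germ cell and 2888 to 3609 per Sertoli cell. Pericytes were not separated as a type, and the sum of 6 pericyte markers was 92.4 to 196 counts per 1000000 UMIs (CPM) in fibroblast-like cells and 102 to 129 CPM in myoid cells. *Meioc* itself was read in germ cells at 293 and 291 CPM (wild type) and 342 and 282 CPM (*Meioc*-null). Because its 3′ tag need not come from the deleted exons, these values do not check the labels.

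Collagen made up the largest share of transcripts in the 2 matrix-forming types. All 43 chains together came to 14060.2 ± 729 UMIs per 1000000 in myoid cells and 13434 ± 637 in fibroblast-like cells (SD, n = 4 libraries). Leydig cells held 1861 ± 409, Sertoli cells 634 ± 65.2 and germ cells 82.3 ± 16.9 per 1000000. CPM values here are UMIs of a gene per 1000000 UMIs of the type in 1 library. Since a 3′ library counts 1 tag per transcript, they were not divided by gene length, and the comparisons are between types for the same chain.

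Among these 5 types, the one with the highest mean level over the 4 libraries, here called the holder of a chain, was the fibroblast-like type for 18 chains, the myoid type for 13, Sertoli cells for 5, Leydig cells for 4 and germ cells for 3. For 27 of the 43 chains, the lowest library of the holder lay above the highest library of every other type. These are descriptions without a test, because the types are clusters of the same cells. The share of all genes separated in this way was not counted, so 27 of 43 shows nothing particular to collagen chains. The holders followed the chain classes in part. Among the 5 types, all 6 collagen IV chains and both short-chain collagens were highest in myoid cells. Fibroblast-like cells were highest for 7 of 11 fibrillar and 4 of 4 transmembrane chains, and the multiplexin pair was split between fibroblast-like and Sertoli cells. The 22 endothelial-like cells set aside were not among these types. They held *Col4a1* (2618 CPM), *Col4a2* (1562 CPM) and *Col8a1* (24.4 CPM, 9 UMIs) above the myoid means. Their levels of *Col4a3* to *Col4a6* and *Col8a2* were below them.

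**Figure D1:**
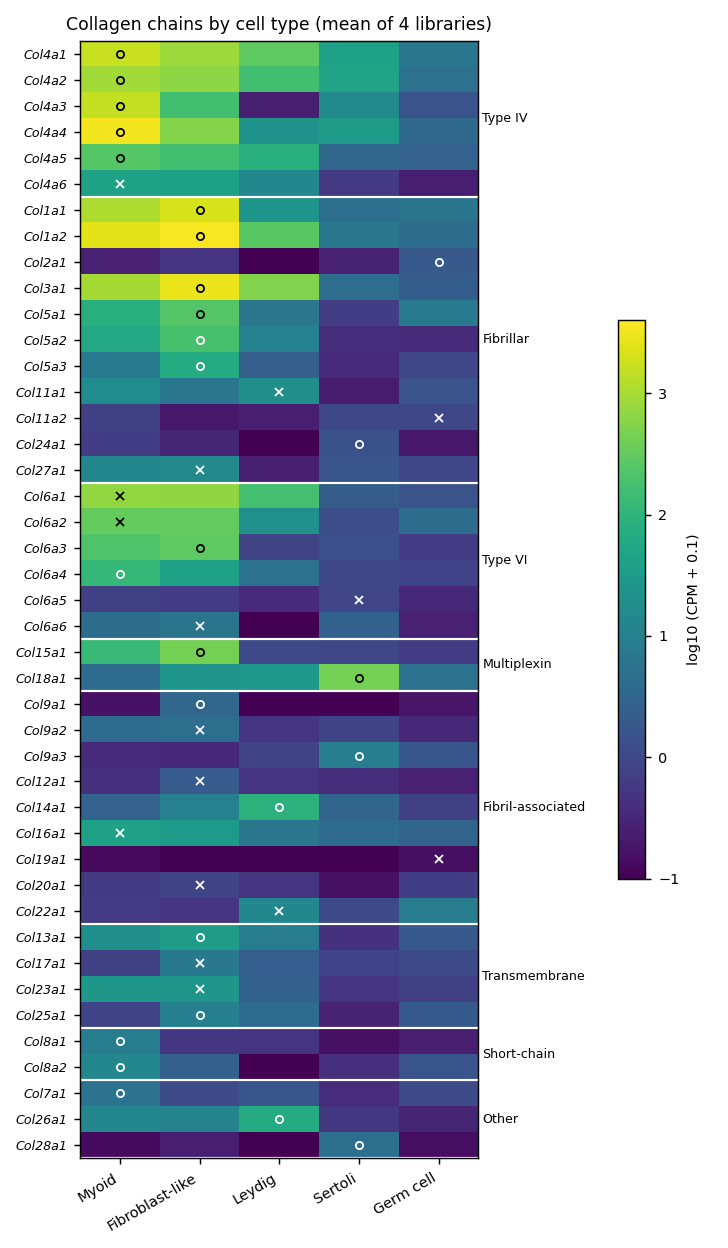
Heat map of the mean level of the 43 chains (rows, grouped by class) in 5 cell types (columns), as log10 of CPM plus 0.1, over 4 libraries. A circle marks the holder where its lowest library lay above every library of the other types (27 chains) and a cross marks the holder where libraries overlapped. The collagen IV block is brightest in the myoid column, the fibrillar block in the fibroblast-like column, and *Col18a1* is the bright cell of the Sertoli column.

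Collagen IV chains, the network-forming chains of basement membranes, are encoded in head-to-head gene pairs, and the pairs are shown because both members of each pair were held by the same type. In GENCODE M21 on GRCm38, *Col4a1* (chr8:11198423-11312826, minus strand) and *Col4a2* (chr8:11312805-11449287, plus strand) share 22 bases at their starts. *Col4a4* (chr1:82448423-82586849, minus strand) and *Col4a3* (chr1:82586921-82722059, plus strand) have 71 bases between their starts. *Col4a6* (chrX:141165403-141474076, minus strand) and *Col4a5* (chrX:141475385-141689234, plus strand) lie 1308 bases apart. The first 2 pairs fit within 1 promoter window each, of 250 bases before to 50 after the annotated start of the minus-strand gene, printed 5′ to 3′ on the minus strand from the RefSeq promoter table on GRCm38.p6. The window named Col4a1 is chr8:11312777-11313076 and that named Col4a4 is chr1:82586800-82587099. Capitals run from one annotated start of the pair to the other.
Col4a1: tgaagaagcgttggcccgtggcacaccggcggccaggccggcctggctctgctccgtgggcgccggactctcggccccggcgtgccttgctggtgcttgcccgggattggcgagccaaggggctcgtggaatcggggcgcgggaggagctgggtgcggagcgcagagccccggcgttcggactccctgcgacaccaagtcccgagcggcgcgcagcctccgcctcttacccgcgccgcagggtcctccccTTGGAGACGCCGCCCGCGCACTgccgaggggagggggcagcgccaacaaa
Col4a4: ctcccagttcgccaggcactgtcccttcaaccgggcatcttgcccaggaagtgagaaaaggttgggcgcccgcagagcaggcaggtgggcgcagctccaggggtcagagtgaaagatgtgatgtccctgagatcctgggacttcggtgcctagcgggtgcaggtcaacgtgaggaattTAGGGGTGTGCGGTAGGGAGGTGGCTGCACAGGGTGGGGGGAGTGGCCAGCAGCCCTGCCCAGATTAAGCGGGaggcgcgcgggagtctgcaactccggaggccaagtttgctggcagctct
The *Col4a1* and *Col4a2* window had 74% G and C and held the Sp1-type box GGGCGG in 1 place and the box CCAAT in 1 place, both on the opposite strand. The *Col4a4* and *Col4a3* window had 63.3% G and C and none of these on either strand, nor the TATA box letters TATAAA. Across all 32851 windows of the table, 35.7% held the first of these motifs, 37.4% the second and 13.6% the TATA box letters on either strand. A match or its absence describes these letters in this window only.

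*Col4a4* was the most abundant chain of myoid cells, at 2990 and 3363 CPM (wild type) and 3552 and 3335 CPM (*Meioc*-null). Fibroblast-like cells held 622 and 440.5 CPM (wild type) and 642 and 539.6 CPM (*Meioc*-null), so every myoid library lay above every fibroblast-like one, with a mean 5.90-fold higher. The contrast was wider for its partner *Col4a3*, with 1510.4 ± 103 CPM in myoid and 164 ± 30.7 CPM in fibroblast-like cells (SD, n = 4), a 9.22-fold difference. *Col4a1* and *Col4a2*, the chains of the network found in nearly all basement membranes, differed less between the types. *Col4a1* was at 1639 ± 155 CPM in myoid and 843 ± 74.2 CPM in fibroblast-like cells, 1.94-fold. *Col4a2* was at 929 ± 50.4 and 654 ± 44.6 CPM, 1.42-fold. The X-linked pair came next, with *Col4a5* at 240.3 CPM in myoid and 164 CPM in fibroblast-like cells and *Col4a6* at 44.9 and 40.4 CPM. *Col4a6* libraries of the 2 types overlapped.

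The 2 genes of a pair did not keep 1 proportion across types. *Col4a4* UMIs per *Col4a3* UMI were 2.17 to 2.22 in the 4 myoid libraries and 3.20 to 3.77 in the 4 fibroblast-like libraries, without overlap. *Col4a1* UMIs per *Col4a2* UMI were 1.62 to 1.95 in myoid cells, 1.15 to 1.44 in fibroblast-like cells and 0.842 to 0.932 in Sertoli cells, again without overlap between the 3. Within myoid and fibroblast-like cells this second ratio was higher in both libraries of batch 2 than in both of batch 1, and the genotypes overlapped. *Col4a5* UMIs per *Col4a6* UMI were 4.98 to 5.98 in myoid and 3.77 to 4.57 in fibroblast-like cells.

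Leydig cells held little of the *Col4a3* and *Col4a4* pair beside their *Col4a1* (291 ± 87.4 CPM) and *Col4a2* (163 ± 35.1 CPM). They had 1 *Col4a3* UMI in 179 cells and 119 *Col4a4* UMIs. Of the 119, 95 came from *Meioc*-null replicate 2, in 28 of its 72 cells. The other 3 libraries held 9, 12 and 3. After doublet removal, that library also gave 52 of the 54 macrophage-like and 16 of the 22 endothelial-like cells set aside. Without doublet removal there were 31 and 58 (wild type) and 36 and 78 (*Meioc*-null) macrophage-like cells. Endothelial-like cells then numbered 18 and 32 against 26 and 66. In Leydig cells of that library the fibroblast-like marker sum was 478 CPM, against 248 to 461 in the others. Their myoid marker sum was 109 CPM, against 108 to 184 in the others. The part of other cells' RNA in these *Col4a4* UMIs was not tested.

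**Figure D2:**
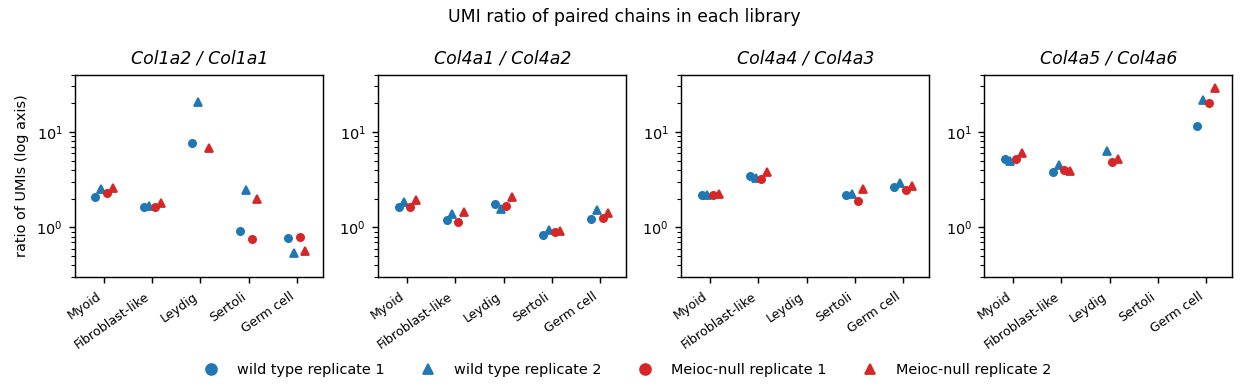
UMI ratio (log axis) of 4 chain pairs in each library, by cell type, with blue for wild type, red for *Meioc*-null, circles for replicate 1 and triangles for replicate 2. A point is drawn only where the second chain of the pair, the divisor, had enough UMIs. The *Col4a4* to *Col4a3* ratio is 2.17 to 2.22 in myoid cells and 3.20 to 3.77 in fibroblast-like cells, and the *Col1a2* to *Col1a1* ratio is highest in Leydig cells.

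The abundant fibrillar chains, those of collagens I, III and V, had their highest levels in fibroblast-like cells. *Col1a2*, a chain of collagen I, the main fibre of connective tissue, was at 3153 and 3508 CPM (wild type) and 3736 and 3723 CPM (*Meioc*-null) in fibroblast-like cells. In myoid cells it was at 2303 and 2613 CPM (wild type) and 2609 and 2614 CPM (*Meioc*-null). Every fibroblast-like library lay above every myoid library, by 1.39-fold in the means. The gap was larger for its partner *Col1a1* (2097 ± 131 against 1070.0 ± 58.4 CPM, 1.96-fold) and for *Col3a1*, the chain of the thin fibres of soft tissue (2916 ± 170.5 against 938 ± 44.9 CPM, 3.11-fold).

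The chains of collagen V, which sit inside collagen I fibrils and limit their width, were also higher in fibroblast-like cells. *Col5a1* was at 237 CPM against 75.1 CPM in myoid cells, *Col5a2* at 183 against 59.5 CPM and *Col5a3* at 68.2 against 7.52 CPM, the last a 9.06-fold difference. No library of the 2 types overlapped for these 3 chains. *Col27a1* was near equal, at 14.8 and 14.1 CPM, and its libraries overlapped.

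*Col1a2* UMIs exceeded *Col1a1* UMIs 1.62 to 1.79 times in fibroblast-like and 2.10 to 2.60 times in myoid libraries. In Leydig cells the ratio was 6.81 to 20.5 in the 3 libraries with enough *Col1a1* UMIs. All 4 libraries together held 1161 *Col1a2* and 135 *Col1a1* UMIs, with 70 and 1 in the library left out, *Meioc*-null replicate 1. As with *Col4a4*, *Meioc*-null replicate 2 gave most of the *Col1a1* UMIs (104 of 135), while the other 3 libraries held 18, 12 and 1. Leydig cells thus carried *Col3a1* (529 ± 147 CPM) and *Col1a2* (266 ± 105 CPM) with *Col1a1* at 28.6 and 12.01 CPM (wild type) and 2.59 and 61.4 CPM (*Meioc*-null).

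Collagen VI, the beaded filament between basement membrane and fibres, was shared by the 2 matrix-forming types. *Col6a1* was at 724 ± 51.8 CPM in myoid and 693 ± 48.4 CPM in fibroblast-like cells and *Col6a2* at 329 and 317 CPM, with overlapping libraries. The long chain *Col6a3* was higher in fibroblast-like cells (289 against 219.5 CPM, 1.32-fold, no overlap) and its relative *Col6a4* in myoid cells (116 against 42.2 CPM, 2.74-fold, no overlap). *Col6a5* and *Col6a6* stayed below 7 CPM in every type and library. In Leydig cells *Col6a1* reached 169 ± 17.03 CPM while *Col6a3* had 3 UMIs in all.

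The multiplexins *Col15a1* and *Col18a1*, basement membrane collagens that carry heparan or chondroitin sulfate chains, had opposite holders. *Col15a1* was at 434 ± 43.6 CPM in fibroblast-like cells and 132 ± 27.0 CPM in myoid cells, and at 1.45 CPM or less in every Sertoli library. *Col18a1*, the source of endostatin, was at 495 and 356 CPM (wild type) and 479 and 412 CPM (*Meioc*-null) in Sertoli cells. Among the 5 types compared, the next was Leydig cells at 28.2 CPM, a 15.4-fold difference, while the 22 endothelial-like cells set aside held 330 CPM, and myoid cells held 2.27 to 5.65 CPM. *Col18a1* made up 8041 of the Sertoli UMIs and was detected in 41.2 to 51.4% of Sertoli cells per library, against 4.60 to 10.3% of germ cells (medians of 2888 to 3609 and 12801 to 16315.5 UMIs per cell). With each cell thinned to 1000 UMIs, the shares were 15.8 to 23.4% and 0.264 to 0.889%.

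The cells placed as Sertoli fell into 1 shallow and 2 deeper clusters. The shallow cluster, 896 of the 1304 cells with a median of 2381.5 UMIs, set the low median of the type (23113.5 to 37426 UMIs per library without it, deeper than germ cells). It was led by hemoglobin genes, which mark red blood cells, and was placed as Sertoli because 6 of 8 Sertoli markers were detected, with *Rhox8* among its leading genes. It held *Col18a1* at 63.0 to 178 CPM per library, below the 370.0 to 618 CPM of the 2 deeper clusters. Sertoli cells also carried *Col4a2* (47.7 ± 4.35 CPM), *Col4a1* (42.6 ± 4.13 CPM), *Col4a4* (32.9 ± 2.22 CPM) and *Col4a3* (15.0 ± 2.08 CPM). *Col4a4* UMIs per *Col1a2* UMI were 8.10 and 8 in the batch 1 and 3.46 and 3.61 in the batch 2 libraries of Sertoli cells, from only 126 *Col1a2* UMIs, against 1.28 to 1.36 in myoid cells and 0.871 to 0.935 in germ cells.

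The remaining Sertoli-held chains were rare. *Col9a3*, a chain of the fibril-associated collagen IX of cartilage, was at 7.88 to 10.8 CPM in Sertoli cells and 1.45 to 1.74 CPM in germ cells, the next type. *Col28a1*, a beaded-filament collagen best known from nerve, was at 3.00 and 2.36 CPM (wild type) and 8.32 and 5.30 CPM (*Meioc*-null) in Sertoli cells, with 81 of its 101 UMIs there. *Col24a1* (1.31 CPM, 25 UMIs) and *Col6a5* (0.825 CPM, 15 UMIs) rested on few counts, and *Col24a1* overlaps a counted gene on its own strand (*D530037P16Rik*). *Col6a5* libraries overlapped with myoid cells.

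Leydig cells were the holder of *Col14a1* and *Col26a1* without overlap. *Col14a1*, a fibril-associated collagen, was at 77.9 and 83.1 CPM (wild type) and 114 and 85.7 CPM (*Meioc*-null) in Leydig cells, against 9.80 CPM in fibroblast-like cells, a 9.19-fold difference. *Col26a1*, known from the developing testis and ovary, was at 65.1 and 49.0 CPM (wild type) and 85.4 and 74.4 CPM (*Meioc*-null), 5.12-fold above myoid cells. It overlaps *Gm20485* on the same strand. *Col22a1* (14.002 CPM, 49 UMIs) and *Col11a1* (19.2 CPM) were highest in Leydig cells by mean only, and *Col11a1* was close in myoid cells (17.5 CPM, 1.10-fold, overlapping). *Col14a1* was detected in 42.9 to 58.3% of Leydig cells against 0.994 to 1.49% of germ cells.

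The myoid type was also the holder of the short-chain collagens of network-forming sheets, *Col8a1* (8.97 CPM against 0.445 in fibroblast-like cells) and *Col8a2* (13.5 against 2.46 CPM), and of *Col7a1*, the anchoring fibril chain (5.56 CPM). *Col16a1*, a fibril-associated chain, was highest there by mean only (43.3 against 32.7 CPM). Of the transmembrane chains, *Col13a1* (34.9 against 19.1 CPM in myoid cells) and *Col25a1* (9.68 against 4.02 CPM in Leydig cells) were apart in fibroblast-like cells. *Col23a1* (27.3 and 26.8 CPM) and *Col17a1* (7.09 CPM, next 2.28) overlapped with another type. The 22 endothelial-like cells set aside held *Col13a1* at 48.7 CPM (18 UMIs), above the fibroblast-like mean, and the other transmembrane chains below it. Fibroblast-like cells also held *Col9a1*, with 26 of its 61 UMIs in the 5 types, and overlapping low levels of *Col9a2*, *Col12a1* and *Col20a1* (0.787 to 4.57 CPM); *Col20a1* overlaps *BX649560.1* on its strand.

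**Figure D3:**
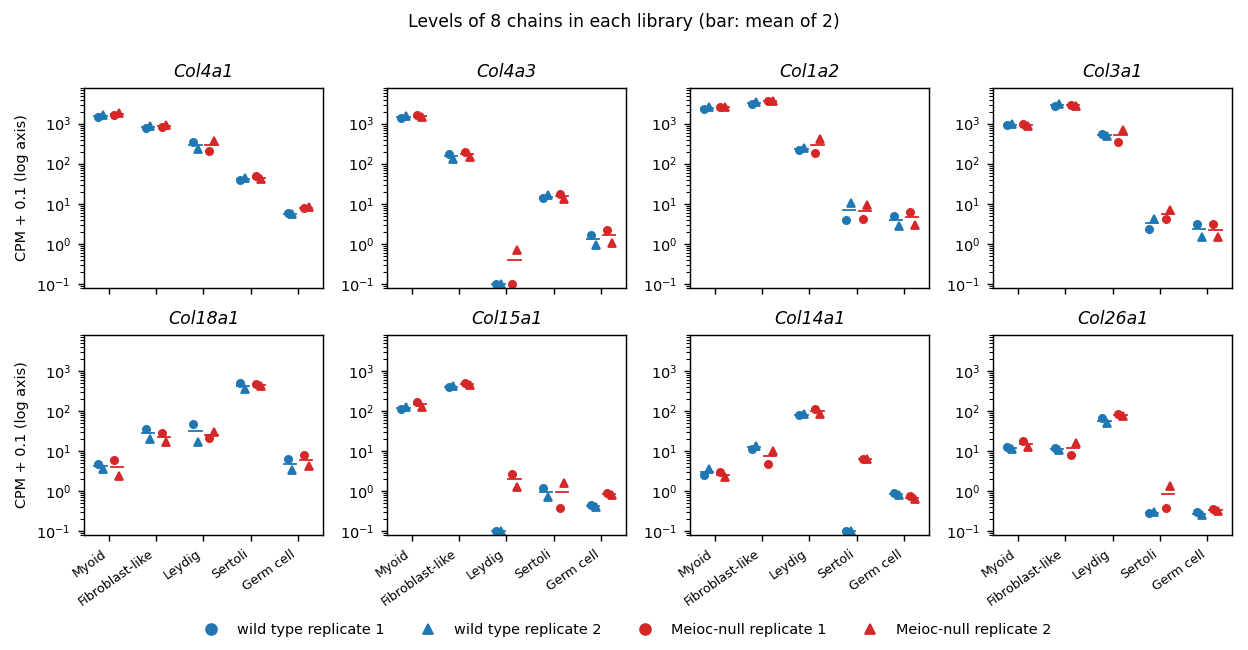
CPM plus 0.1 (log axis) of 8 chains in each library by cell type, with blue for wild type, red for *Meioc*-null, circles for replicate 1, triangles for replicate 2 and a bar for the mean of the 2 libraries of a genotype. *Col4a3* is nearly missing from Leydig cells, *Col18a1* stands highest in Sertoli cells, and *Col14a1* is absent from both wild-type Sertoli libraries but read at 6.10 and 6.02 CPM in the others.

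Free RNA can add UMIs to cells that do not make a chain, so germ cells were read beside the somatic types. Per 1000 UMIs of a chain in the 4 somatic types, germ cells of the same library held 7.74 to 21.4 UMIs of *Col1a2*, 7.11 to 19.7 of *Col4a4*, 7.84 to 22.7 of *Col3a1* and 5.95 to 16.5 of *Col4a3*. Within a library these 4 chains had similar proportions, with *Col4a3* lowest, and they were lower in both libraries of batch 2 than in both of batch 1. Other chains stood well above it. Of the 41 chains with a ratio in every library, 28 exceeded 5 times the *Col1a2* proportion in all 4 libraries. Of those, 12 had at least 400 germ cell UMIs, and others had few, such as *Col28a1* with 18. These limits were set after the values were seen, and the share of all genes that pass them was not counted. Germ cells held most of the UMIs, so a low germ cell level can pass. *Col4a5* passed at 2.71 CPM in germ cells against 240 CPM in myoid cells. The counts do not set collagen chains apart from other genes. *Col5a1* was at 609 to 770 germ cell UMIs per 1000 somatic ones and *Col22a1* at 27312 to 51200, from 3268 germ cell and 86 somatic UMIs. For *Col2a1*, the cartilage fibre chain, 711 UMIs were in germ cells and 11 in the somatic types.

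The germ cell chains differed in where they were highest among germ cell clusters, counting libraries with at least 50 cells of the cluster. By mean level, *Col18a1* (15.4 to 23.5 CPM), *Col13a1* (10.2 to 13.1 CPM) and *Col25a1* (6.72 to 9.34 CPM) led in the cluster marked by *Nefm*, *Ccnd2* and *Gfra1*, with *Col25a1* close behind in the cluster led by *Egr4* and *Upp1* (6.58 to 9.19 CPM). *Col5a1* (15.1 to 18.6 CPM) and *Col22a1* (13.2 to 18.4 CPM) were high in the cluster led by *Hist1h2ae* and *Dnmt3b*, and overlapped there with the cluster led by *Upb1* (14.5 to 19.2 and 12.1 to 17.2 CPM). *Col2a1* (11.9 and 9.37 CPM) and *Col16a1* (23.3 and 11.9 CPM) were highest in the cluster led by *Ldhc* and *Fabp9*, which held no *Meioc*-null cells. *Col11a2* and *Col19a1*, the other chains with germ cells as holder, were low in every type (0.909 and 0.0553 CPM in germ cells), and *Col11a2* was as high in Sertoli cells (0.902 CPM).

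**Figure D4:**
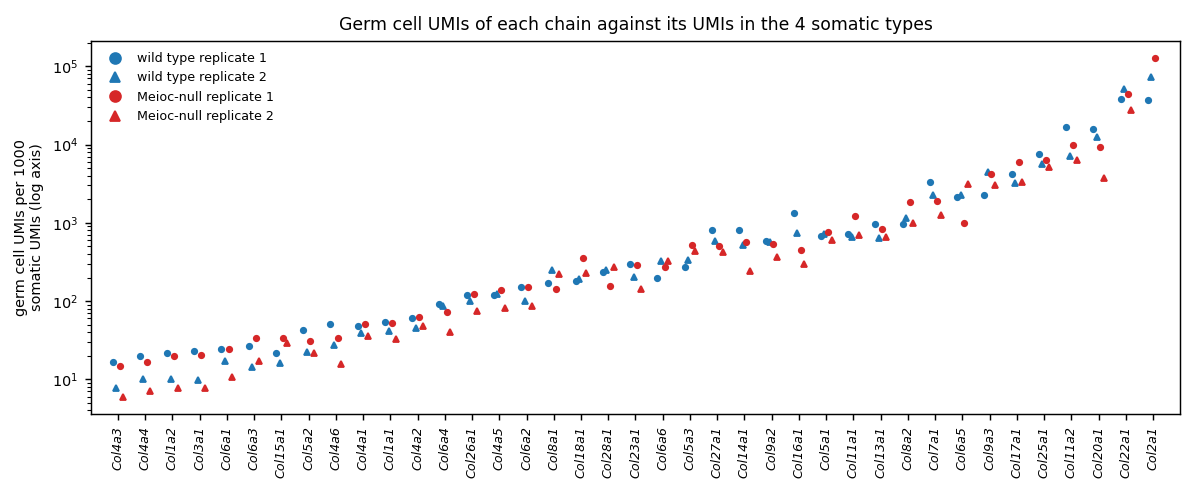
Germ cell UMIs per 1000 UMIs of the same chain in the 4 somatic types (log axis), for chains with at least 100 UMIs, ordered by the median of the libraries, with blue for wild type, red for *Meioc*-null, circles for replicate 1 and triangles for replicate 2. *Col4a3*, *Col4a4*, *Col1a2* and *Col3a1* are among the lowest, between 5.95 and 22.7, and every point of *Col22a1* and *Col2a1* is at 27312 or above.

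The genotype comparison asked whether chains differed between wild-type and *Meioc*-null pups in the 3 somatic types with at least 50 cells in every library. UMIs were summed per library and type, and genes with at least 40 UMIs over the libraries were tested with edgeR's quasi-likelihood test. Log2 fold changes are wild type over *Meioc*-null. A gene was called at a Benjamini-Hochberg adjusted p under 0.05 with an absolute log2 fold change over 0.1.

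No chain was called in myoid or fibroblast-like cells. In myoid cells 0 of 30 tested chains were called by edgeR, 0 by DESeq2 and 1 at an unadjusted p under 0.05, beside 12 of 12607 genes (0.0952%, of which 1 was higher in *Meioc*-null cells, 0.00793%) and 2.57% of genes at the unadjusted p. In fibroblast-like cells 0 of 29 chains were called by either tool and 0 at an unadjusted p under 0.05, beside 7 of 10359 genes (0.0676%) and 2.65% at the unadjusted p. With the littermate pair as a block, 60 and 37 genes were called in the 2 types but still 0 chains. The other 13 and 14 chains had too few UMIs to test. The log2 fold changes ran from -0.33 to 0.51 in myoid and from -0.36 to 0.70 in fibroblast-like cells, with medians of -0.04 and -0.06 against 0.01 for all genes in both types. The genotypes' libraries did not overlap for 5 of 30 myoid chains and 9 of 29 fibroblast-like chains, beside 23.1% and 27.5% of all tested genes.

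The most abundant chains had estimates smaller than their standard errors. In myoid cells *Col4a4* had a log2 fold change of -0.07 (SE 0.22) and *Col4a3* of -0.05 (SE 0.20). In fibroblast-like cells *Col1a2* had -0.14 (SE 0.18) and *Col3a1* 0.07 (SE 0.18). The myoid chain with an unadjusted p under 0.05 was *Col8a1*, at 10.5 and 10.4 CPM (wild type) and 7.91 and 7.17 CPM (*Meioc*-null) (log2 fold change 0.51, SE 0.23, edgeR adjusted p = 1.00). In fibroblast-like cells *Col4a6* was at 33.7 and 36.2 CPM (wild type) and 45.5 and 46.0 CPM (*Meioc*-null) without overlap (log2 fold change -0.36, SE 0.20, edgeR adjusted p = 0.999).

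Summed over the 43 chains, collagen per 1000000 UMIs was 13101 and 14189.6 in wild-type against 14871 and 14079 in *Meioc*-null myoid cells, and the genotypes overlapped (exact two-sided permutation test, p = 0.667). Fibroblast-like cells had 12707 and 13377 against 14261 and 13389, which did not overlap. The exact two-sided permutation test gave p = 0.333, the smallest that 2 against 2 libraries allow. Within batches the fibroblast-like difference, wild type minus *Meioc*-null, was -1554 in batch 1 and -11.5 in batch 2. In Sertoli cells the sums were 669 and 548 against 697 and 621 (exact two-sided permutation test, p = 0.667), with within-batch differences of -28.0 in batch 1 and -73.3 in batch 2. In myoid cells these were -1769 and 110. Leydig cells were too few to test, with sums of 1930.4 and 1628 against 1480.0 and 2407.

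**Figure D5:**
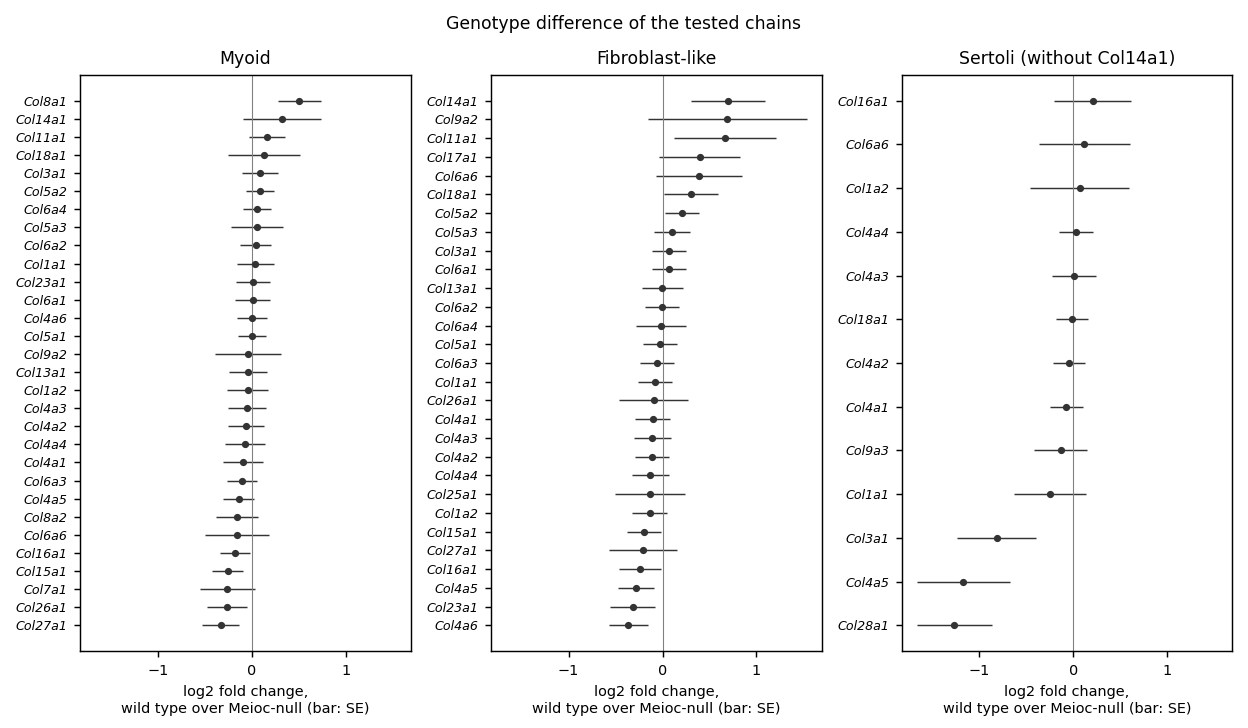
Log2 fold change, wild type over *Meioc*-null (x axis, bars are the standard error), of each tested chain (y axis, ordered by value) in myoid, fibroblast-like and Sertoli cells, with *Col14a1* in Sertoli cells (-7.79) left off the scale. Myoid values lie between -0.33 and 0.51, and no chain drawn passed the test.

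In the cells placed as Sertoli, 1 of 14 tested chains was called, beside 45 of 11298 genes (0.398%, with 25 of them, 0.221%, higher in *Meioc*-null cells). The shallow cluster made up 198 of 322 and 186 of 291 of these cells in wild type. In *Meioc*-null libraries it made up 270 of 362 and 242 of 329, so the make-up of the type differed by genotype. With the block 174 genes were called and again 1 chain. The chain was *Col14a1*, with 0 and 0 UMIs in the 613 wild-type cells and 22 and 25 UMIs in the 691 *Meioc*-null cells (0 and 0 against 6.10 and 6.02 CPM). If UMIs were independent, a count of 0 would allow up to 3 UMIs over the wild-type group. Against that limit the *Meioc*-null level was 21.7-fold higher. This fold is no lower bound, because most of the UMIs came from a few cells. The edgeR adjusted p was 2.94e-05, and DESeq2 also called the gene. The gene reached the limit of 40 UMIs for a test only through the *Meioc*-null libraries, so the limit admitted it because of the difference tested. Without doublet removal the call was lost (log2 fold change -1.95, edgeR adjusted p = 0.12). The 47 UMIs came from 6 of the 691 cells, and 45 of them from 4 cells, all of the shallow cluster. These 4 cells held 9898 to 33982 UMIs each, above the cluster's median of 2381.5. Of the Sertoli genes, they had 6 to 18 UMIs of *Sox9*, 4 to 14 of *Cldn11* and 1 to 5 of *Wt1* but 0 of *Amh* and *Rhox8*, and they had 0 of the Leydig gene *Insl3*. What these cells are was not settled, so the call is one of the cells placed in this type and need not be of Sertoli cells. Without either *Meioc*-null library, or without the shallow cluster, *Col14a1* had too few UMIs to be tested and no chain was called. The sum of 6 Leydig markers in Sertoli cells was 12.7 and 10.8 CPM (wild type) and 16.6 and 62.4 CPM (*Meioc*-null), and that of 6 macrophage markers was 0.883 and 0.984 against 19.4 and 0.964 CPM, with no marker of either list at 0 in all 4 libraries and 3 and 5 of them under 10 CPM in all. Their part in the *Col14a1* result was not tested.

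The interaction test on *Col14a1* reuses this Sertoli contrast and is no separate evidence. In myoid cells the gene was at 2.36 and 3.41 CPM (wild type) and 2.82 and 2.08 CPM (*Meioc*-null), and in fibroblast-like cells at 11.2 and 13.3 against 4.67 and 10.0 CPM. The interaction was called between Sertoli and myoid cells (edgeR adjusted p = 0.0395, 5 of 10533 genes called, 0.0475%) and between Sertoli and fibroblast-like cells (edgeR adjusted p = 0.00768, 7 of 9322 genes, 0.0751%). Both rest on the same few cells. Between myoid and fibroblast-like cells, 0 of 27 chains had a called interaction, with 0 at an unadjusted p under 0.05 and 1 of 10213 genes (0.00979%) called by edgeR; DESeq2 was not run on it.

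The other Sertoli chains were not called. *Col18a1* had a log2 fold change of -0.02 (SE 0.17) and the collagen IV chains *Col4a1* to *Col4a4* ran from -0.07 to 0.03. *Col28a1* (log2 fold change -1.27, SE 0.40, edgeR adjusted p = 0.316) and *Col4a5* (-1.17, SE 0.49, edgeR adjusted p = 0.727) passed at an unadjusted p only, as did 5.26% of all genes with *Col14a1* among the 3 chains counted at that limit. The median over the 14 chains was -0.06 against 0.00 for all genes, and the genotypes did not overlap for 6 of 14 chains beside 31.8% of all genes. That median was not stable. It was -0.23 to -0.14 with 1 library left out, and lower still with no filter, without doublet removal and at a mitochondrial limit of 5%. These Sertoli values depended on 2 limits on cells. Without doublet removal 9 of 22 tested chains were called beside 73 of 12457 genes (0.586%). The 9 chains (*Col3a1*, *Col4a4*, *Col4a3*, *Col6a3*, *Col1a2*, *Col4a1*, *Col6a2*, *Col6a1* and *Col1a1*) were all higher in *Meioc*-null cells, as were 60 of the 73 genes. With a mitochondrial limit of 5%, 1 of 4 tested chains, *Col18a1*, was called (log2 fold change -1.68, edgeR adjusted p = 0.00949) beside 77 of 6853 genes (1.12%). The 2 deeper Sertoli clusters had median mitochondrial shares of 8.48 to 9.24% per library, above this limit. Under it, wild-type Sertoli UMIs fell from 5660643 and 5079322 to 264642 and 302567. Those of *Meioc*-null libraries fell from 3604092 and 4151348 to 593047 and 1115841. The *Col18a1* call is thus of a different, shallower set of cells.

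The genes that make, bind and cut collagen were counted from 5 lists. Of 33 genes for collagen modification, folding and crosslinking, 25, 25 and 18 were tested in myoid, fibroblast-like and Sertoli cells. None was called by edgeR, beside 0.0952%, 0.0676% and 0.398% of all genes. An unadjusted p under 0.05 was found for 1, 0 and 1 of them, beside 2.57%, 2.65% and 5.26% of all genes. Their medians were 0.05, -0.05 and -0.07. The most abundant in myoid cells were *Serpinh1*, the collagen chaperone (wild type 861 and 605 CPM, *Meioc*-null 831 and 674 CPM), and the prolyl isomerase gene *Ppib* (665 ± 46.2 CPM). In Sertoli cells they were *Ppib* (455 ± 37.1 CPM) and the collagen galactosyltransferase gene *Colgalt1* (322 ± 31.7 CPM).

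Of 10 collagen receptors 7, 5 and 4 were tested, and of 14 breakdown enzymes with their inhibitors 8, 8 and 5. Of 17 basement membrane partners 14, 13 and 10 were tested. No gene of these 3 lists was called by edgeR in any of the 3 types, beside 0.0952%, 0.0676% and 0.398% of all genes. Only 2 basement membrane partners had an unadjusted p under 0.05, both in Sertoli cells, where 5.26% of all genes did. Medians of the 3 lists lay between -0.22 and 0.05. *Itgb1*, the shared beta chain of the collagen-binding integrins, was at 725 ± 50.7 CPM in myoid and 475 ± 29.8 CPM in fibroblast-like cells. The protease inhibitor gene *Timp3* was at 740 ± 64.7 CPM in myoid cells, and *Timp2* at 686 ± 36.4 CPM in fibroblast-like cells. *Sparc*, a collagen-binding matricellular protein, was at 4552 ± 317 CPM in myoid, 5285 ± 283 CPM in fibroblast-like and 1940 ± 320.5 CPM in Sertoli cells. The laminin chain genes were led by *Lamc3* in myoid cells (741 ± 105 CPM) and *Lama2* in fibroblast-like cells (652 ± 55.2 CPM).

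Of 14 fibril partners, 11, 13 and 8 were tested, 0, 2 and 2 had an unadjusted p under 0.05 (2.57%, 2.65% and 5.26% of all genes), and 1 was called, in fibroblast-like cells (0.0676% of all genes). It was *Postn*, periostin, a matrix protein that binds collagen I, at 22.0 and 26.5 CPM (wild type) and 9.93 and 3.34 CPM (*Meioc*-null) (log2 fold change 1.99, SE 0.37, edgeR adjusted p = 0.0371). DESeq2 did not call it, although its fold change was similar (log2 1.97, adjusted p = 0.565). The edgeR call was lost without *Meioc*-null replicate 1 (log2 2.83), without replicate 2 (1.36) and at a mitochondrial limit of 5% (0.80, edgeR adjusted p = 1.00). It was also lost, at a similar fold change, without doublet removal (1.78, edgeR adjusted p = 0.0703) and with collagen genes in the clustering (1.98, edgeR adjusted p = 0.0593). At the 5% limit only 452 of 793 fibroblast-like cells kept their type. Over all alternatives the adjusted p ran from 8.62e-07 to 1.00. With the littermate pair as a block, 2 fibril partners were called, *Postn* (log2 fold change 2.00) and the fibronectin gene *Fn1* (0.62). More abundant partners had values such as 5092 ± 289 CPM for *Dcn* in fibroblast-like cells (log2 fold change -0.07, SE 0.18) and 1399 ± 168 CPM for *Eln*, the elastin gene, in myoid cells (0.02, SE 0.20).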

How the data were processed

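Single-cell transcripts of 4 P15 testes (2 wild type, 2 *Meioc*-null) were analysed. The authors aligned and counted reads with Cell Ranger 4.0.0 on mm10/GRCm38 (submitters' processing notes) and deposited whole-number UMI counts per gene and barcode. From these, barcodes with over 1000 genes and under 10% mitochondrial UMIs were kept, as the study did. Top-scoring doublets were removed at 0.8% per 1000 barcodes (9.59 to 13.2% of barcodes). The doublet caller's own calls were 1.94 to 4.58%. Wild-type cells were clustered without collagen genes (scanpy 1.11.5, 2000 variable genes, 30 components, 20 neighbours, Leiden resolution 1) and *Meioc*-null cells were placed by 30 neighbours. A cluster was named where at least 3 markers of a type were detected in 25% of its cells. Endothelial-like and macrophage-like cells with at least 4 markers were set aside, and 898 cells stayed unnamed.

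Counts were summed per library and type and tested with edgeR 4.0.16 (TMM, robust fit) in R 4.3.3, with genes of at least 40 UMIs. DESeq2 1.42.0 was an alternative. The scripts were tested on simulated data. Labels give the replicate number as a batch of 1 littermate pair, so the numbers pair the samples. Deviations of same-numbered libraries correlated at 0.043 (myoid), 0.193 (fibroblast-like) and 0.185 (Sertoli) over genes. The 2 largest myoid clusters were still split by batch. The first held 19 and 176 cells of batch 1 and 429 and 507 of batch 2 (wild type, then *Meioc*-null). The second, led by *Hspa1a*, held 384 and 316 against 19 and 36. The main test left the pairing out. Intervals and floors cover counting error only.

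The chains, lists and cell types were chosen with earlier results of these data known. Named with values were the 6 chains of highest level per type, each called chain, each chain held by neither myoid nor fibroblast-like cells and the paired chains; of other lists, called genes or the 2 most abundant. Other genes were added after their values were seen. Positions are from GENCODE M21, in which 32158 of 32285 gene IDs matched; promoter windows were found for 34 of 43 members. The study's own single-cell test covered germ cell clusters only. The study also tested bulk RNA-seq of synchronized whole testes by genotype, and those results were not compared here. Leydig and germ cells were not tested.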

Additional observations from a re-analysis of the deposited data

Results flagged for a closer look

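For *Col14a1*, the interaction test called a difference in the genotype effect (wild type over *Meioc*-null, log2) between cell types. It reuses the Sertoli contrast, which the gene entered only through its *Meioc*-null UMIs. The effect in myoid minus that in Sertoli cells was 8.246 (SE 1.12, edgeR adjusted p = 0.0395), and in fibroblast-like minus Sertoli cells it was 7.963 (edgeR adjusted p = 0.00768). These sizes depend on the prior count, since both wild-type Sertoli libraries held 0 UMIs, and they are no bound. Of the 47 UMIs, 25 came from a single cell of *Meioc*-null replicate 2. Without the shallow cluster of Sertoli cells *Col14a1* had too few UMIs to be tested, so that setting cannot decide its interaction. Of the 11 chains tested there, 0 had a called interaction in either comparison.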

How the results depend on the processing

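Of 690 values under alternatives, 609 were judged the same, 27 turned direction and 54 moved otherwise. The cause was not tested unless stated. For 303 values of single chains, the same means the same direction and side of the threshold. For the other 387 it means an equal or similar count (0 against 0 included), a median within the spread of the batches, or a sum of the same sign. No chain was called in myoid or fibroblast-like cells under any alternative. With the littermate pair as a block, 60, 37 and 174 genes were called in myoid, fibroblast-like and Sertoli cells and 2 fibril partners in fibroblast-like cells. The block changed no other call named here. With no filter beyond 1 UMI these were 77, 26 and 150 genes, and with a UMI required in 25% of cells 5, 0 and 7 genes, 0 fibril partners in fibroblast-like cells and 0 chains in Sertoli cells. DESeq2 called 3 genes in fibroblast-like cells (0 fibril partners) and 14 in Sertoli cells. The mitochondrial limit of 5% gave 4, 0 and 77 genes, 0 fibril partners in fibroblast-like cells and 1 modification gene in Sertoli cells (*Colgalt1*). No doublet removal gave 0 fibril partners in fibroblast-like cells, and in Sertoli cells 73 genes, 9 chains, 3 basement membrane partners, 3 fibril partners and *Col14a1* at -1.95 (adjusted p = 0.12). Collagen genes in the clustering gave 0 fibril partners in fibroblast-like cells (*Postn* at log2 1.98, edgeR adjusted p = 0.0593). Clusters from all 4 libraries gave 27 genes in Sertoli cells. Without the shallow Sertoli cluster, an alternative chosen after seeing the data, 13 genes and 0 chains were called there. *Col14a1* was not tested in that setting, and 0 and 0 of the other chains had an interaction with myoid and fibroblast-like cells.

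The median log2 fold change of the Sertoli chains was -0.38 with no filter, -0.89 without doublet removal and -1.02 at the 5% limit. *Col18a1* there was 0.0029 with no filter. *Col4a3* was -1.08 without doublet removal, -0.013 with clusters from all 4 libraries, -0.0029 with 15 graph neighbours and -0.058 without the shallow cluster. *Col4a4* was -0.92 without doublet removal and -0.71 at the 5% limit.

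Leaving out 1 library at a time, which takes the remaining library of that genotype to have the spread of the 2 others, gave 23 to 50 genes called in myoid, 0 to 60 in fibroblast-like and 14 to 91 in Sertoli cells. It gave 0 to 1 fibril partners in fibroblast-like cells, 0 to 1 chains in Sertoli cells and a Sertoli median of -0.23 to -0.14. Collagen per 1000000 UMIs in Sertoli cells, wild type minus *Meioc*-null, ran from -111 to 9.89, with the sign turned without wild-type replicate 2. Chains whose sign turned ran, in myoid cells, from -0.17 to 0.068 (*Col1a2*), -0.25 to 0.062 (*Col4a1*), -0.17 to 0.050 (*Col4a3*) and -0.19 to 0.036 (*Col4a4*). In fibroblast-like cells they ran from -0.16 to 0.012 (*Col1a1*), -0.044 to 0.17 (*Col3a1*) and -0.23 to 0.037 (*Col4a1*). In Sertoli cells they ran from -0.27 to 0.19 (*Col18a1*), -0.17 to 0.018 (*Col4a1*), -0.16 to 0.061 (*Col4a2*), -0.17 to 0.20 (*Col4a3*), -0.10 to 0.15 (*Col4a4*) and -0.30 to 0.049 (*Col9a3*). The holder stayed the same for 34 to 43 of 43 chains, fewest at the 5% limit, where Leydig cells were too few to compare. Under that limit chains of other holders moved too, such as *Col23a1* and *Col6a5*, both to myoid cells. Of the 793 fibroblast-like cells under that limit, 452 kept their type. In myoid, fibroblast-like and Sertoli cells 13, 14 and 29 chains had too few UMIs to be tested.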

Other observations

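After doublet removal, the cells set aside from the 5 types also carried collagen, with intervals that cover counting error only (95%, exact Poisson). The 22 endothelial-like cells, 16 of them from *Meioc*-null replicate 2, held *Col4a1* at 2618 CPM (2455 to 2788), *Col4a2* at 1562 CPM (1437 to 1695), *Col4a4* at 1094 CPM (990 to 1206), *Col1a2* at 948 CPM (851 to 1052), *Col15a1* at 374 CPM (314 to 441) and *Col18a1* at 330 CPM (274 to 394). *Col4a4* and *Col1a2* were also the leading chains of myoid cells, and the part of myoid RNA in these values was not tested. The 54 macrophage-like cells, 52 of them from *Meioc*-null replicate 2, held *Col14a1* at 39.6 CPM (25.1 to 59.5), in 26.9% of those 52 cells. *Col1a2* (333 CPM) and *Col4a4* (329 CPM) were in 7.69% and 3.85% of the 52 cells, so these UMIs came from a few cells and are no level of the type.

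*Col11a1*, a chain that starts collagen fibrils in cartilage, had higher values in *Meioc*-null germ cells of 2 clusters, with no test. In the cluster led by *Ccnb3* and *Pet2* it was at 0.896 and 2.58 CPM (wild type) and 6.50 and 6.94 CPM (*Meioc*-null). In the cluster led by *Zfy2* it was at 1.55 and 0.683 CPM (wild type) and 7.85 and 6.18 CPM (*Meioc*-null). Over the 4 libraries these values rest on 89 UMIs in the 1715 cells of the first cluster and 38 UMIs in the 891 cells of the second. They were picked after many chains and clusters were seen, and the share of other genes that separate as far was not counted. *Col4a5* was highest in the same 2 clusters (5.51 to 18.1 CPM).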
